A study of Mus musculus with 15 samples.

Results

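Hdac1-deleted mouse embryonic fibroblasts were set directly against fibroblasts of the same floxed background in which Hdac2 had been knocked down, across all genes measured. The members were the 6 arrays, of 15 in the series, whose titles name floxed cells with the scrambled sequence and tamoxifen (3 arrays) or floxed cells with the active sequence and ethanol (3 arrays). All cells were primary male fibroblasts. RNA was hybridised to an Affymetrix mouse expression array, on which a probe set, a group of short probes, reports the abundance of 1 transcript region as an intensity.

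The Hdac1-deleted cells (KO) were HDAC1 fl/fl, carried viruses for Cre-ERT2 and for a scrambled micro-RNA, and received 200 nM tamoxifen, the agent that switches Cre-ERT2 on. The knockdown cells (Kd) were HDAC1 fl/fl, carried the Cre-ERT2 virus and a virus for a micro-RNA against Hdac2, and received ethanol. The other 9 arrays served only as points of comparison. Cells with both perturbations were HDAC1 fl/fl with the micro-RNA against Hdac2 and tamoxifen. HDAC1 +/+ cells had received tamoxifen, and no source used here names the viruses they carried. Control cells were HDAC1 fl/fl with the scrambled micro-RNA and ethanol. Each group had n = 3 arrays, and nothing in the labels says that the 3 came from separate cultures, so the tests measure a spread that may be technical. KO and Kd cells differed in the deleted or silenced gene, in the micro-RNA and in tamoxifen against ethanol at once, and in the direct comparison these 3 differences cannot be told apart. The difference between +/+ cells with tamoxifen and control cells is therefore given beside it. However, +/+ and floxed cells differ in genotype and may differ in more. KO arrays, with the same 200 nM tamoxifen as +/+ arrays, correlated on average at 0.9931, 0.9941 and 0.9939 with the 3 control arrays. With the 3 +/+ arrays they correlated at 0.9887, 0.9889 and 0.9890. The +/+ difference is therefore no measure of tamoxifen alone, and the part of the agent in it was not tested.

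Histone deacetylases 1 and 2, the paralogous products of Hdac1 and Hdac2, strip acetyl groups off histone tails. They sit together in the Sin3, NuRD and CoREST complexes, which are brought to DNA by transcription factors and mostly lower transcription there. In fibroblasts the enzymes can stand in for each other to a large extent, and Hdac1 has long been linked to the control of the p21 inhibitor and of cell division.

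The targeted genes came first, since they check the labels. Hdac1 had intensities of 155, 144 and 183 in KO cells, against 3841, 3757 and 3966 in Kd cells. The 2 groups were far apart, and Kd arrays were near the control arrays at 3499, 3498 and 3673. The difference KO minus Kd was -4.46 ± 0.15 on the scale of log2(intensity + 16) (SE, adjusted p = 9.78e-12 by limma). Hdac2 had intensities of 6492, 7308 and 7702 in KO cells, against 1028, 939.5 and 908 in Kd cells and 6536, 7354 and 7264 in control cells, a difference of 2.88 ± 0.07 (adjusted p = 7.33e-13). A further Hdac2 probe set measured 3100.1, 4420 and 3833 in KO cells, against 556, 499.9 and 514 in Kd cells. A remaining Hdac2 probe set lay between 17.4 and 27.2 on all 15 arrays. Against control, the log2 difference of Hdac1 in KO cells was -4.34 and that of Hdac2 in Kd cells was -2.86. No source used here gives the place of the Hdac1 probe set relative to the deleted exon. Hdac3, the class I deacetylase of the NCoR complex, measured 1177, 1319 and 1307 in KO cells and 1321, 1274 and 1210.1 in Kd cells, and these ranges overlapped (adjusted p = 0.987). Hdac8, the class I enzyme that works outside these complexes, measured 85.0, 107 and 103 in KO cells and 96.0, 91.7 and 91.3 in Kd cells, also with overlap (difference 0.06 ± 0.10, adjusted p = 0.712).

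**Figure D1:**
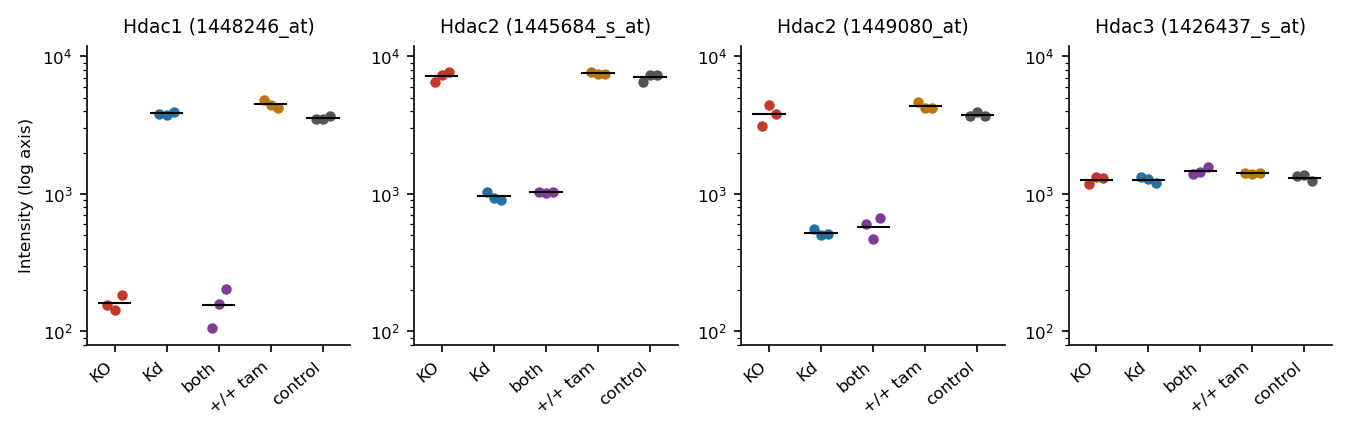
Intensities (log axis) of Hdac1, 2 Hdac2 probe sets and Hdac3 on every array, with KO, Kd, both, +/+ with tamoxifen and control cells from left to right; points are arrays and lines are group means (n = 3). Hdac1 lies between 144 and 183 in KO cells, against 3757 to 3966 in Kd cells, Hdac2 is low in Kd cells and in cells with both, and Hdac3 shows no separation of KO from Kd cells.

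Across the 6 arrays the median intensity ran from 24.97 to 28.6 in KO cells and from 24.8 to 25.7 in Kd cells. Arrays of 1 group correlated at 0.9982 (KO) and between 0.9986 and 0.9988 (Kd). The KO arrays were therefore a little less alike in their medians than the Kd arrays, and KO replicate 1 was the dimmest of the 3. In 13382 tested genes, 3358 (25.1%) passed an adjusted p of 0.05 between KO and Kd cells, 2158 of them (16.1%) higher and 1200 (8.97%) lower in KO cells. The median difference over all tested genes was 0.04. Of the genes past the threshold, 160 (1.2% of tested genes) were higher and 86 (0.643%) lower by 2-fold or more. All 3 KO arrays lay above all 3 Kd arrays in 3153 genes (23.6%) and below them in 1731 (12.9%), and 3222 genes (24.1%) both passed and did not overlap. The split by direction depended on the scaling: quantile normalization gave 2068 higher and 2240 lower genes, and centring each array on its median gave 1963 and 2233. It also depended on single arrays, with 792 lower genes without KO replicate 1 and 794 without Kd replicate 1. In these bulk cultures fewer cells of a kind and less RNA per cell cannot be told apart.

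Subtracting the difference between +/+ cells with tamoxifen and control cells left a contrast that is called the matched one here. It had 2996 genes past the threshold (22.4%), 1242 higher (9.28%) and 1754 lower (13.1%), of which 274 (2.05%) and 290 (2.17%) were 2-fold or more. Its standard error was larger, with a median of 0.123 against 0.0867 for the direct contrast. The +/+ cells with tamoxifen themselves differed from control in 3808 genes (28.5%), more than KO cells (3235, 24.2%) or Kd cells (1408, 10.5%) did, so a direct difference and a matched difference of 1 gene can be far apart. Of the 146 genes named by rule that passed in the direct contrast, 111 kept direction and call after the subtraction. Another 28 lost the call with the same sign, and 7 changed sign, of which Ankrd1, Ccne1 and Tm7sf2 also lost the call. Some of these genes were named because they passed the matched contrast in the same direction, and others for large direct differences. The 111 are thus no estimate for all genes.

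Among the genes higher in KO than in Kd cells, the one with the largest difference was C1qtnf3, which encodes a secreted protein of the C1q and TNF-related family. It measured 3521, 3859 and 3194 in KO cells, against 291, 252 and 245 in Kd cells. Control arrays, at 1276, 1786 and 1884, lay between the groups. The difference was 3.67 ± 0.21 (adjusted p = 4.17e-09), and 4.86 in the matched contrast, since +/+ cells with tamoxifen were lower than control by -1.20 on the same signed scale. Tmem35a, a chaperone of nicotinic acetylcholine receptors, measured 437, 523 and 541 in KO cells, against 37.7, 32.0 and 44.0 in Kd cells. Here the Kd cells stood apart, because control arrays read 522, 729.9 and 610.1, close to KO cells. +/+ cells with tamoxifen were also low, at 72.4, 44.2 and 42.4, so the direct difference of 3.26 ± 0.16 became 6.48 in the matched contrast. The zinc finger gene Bnc1 (basonuclin 1) measured 388, 369 and 403 in KO cells, against 27.1, 31.2 and 20.9 in Kd cells, and both control and +/+ arrays lay between (69.9, 129 and 94.5 in control cells). Its difference was 3.25 ± 0.16 (adjusted p = 7.06e-10) and hardly moved in the matched contrast (3.09).

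Further genes of this kind had smaller differences. Ccbe1, a secreted factor of lymphatic vessel growth, measured 299, 398 and 476 in KO cells, against 47.8, 40.7 and 45.9 in Kd cells (2.72 ± 0.20, adjusted p = 6.18e-08). Cdh6, a cadherin of cell adhesion, measured 211, 229 and 251 in KO cells, against 28.0, 26.0 and 19.8 in Kd cells (2.60 ± 0.13). Nudt6, a nudix hydrolase gene, measured 529.9, 591 and 697 in KO cells, against 87.2, 90.8 and 97.4 in Kd cells (2.52 ± 0.10). Control arrays lay between KO and Kd arrays in each of the 3 genes, and absence of overlap between KO and Kd arrays was a condition for naming them. The remaining genes among the 12 highest were Pamr1 (2.31), Hoatz (2.24), the proprotein convertase gene Pcsk6 (2.22), the glutathione transferase gene Gsta4 (2.21), Cox6b2, a testis form of a cytochrome c oxidase subunit (2.21), and Hdac2 itself. Hoatz and Cox6b2 were higher in KO cells than in control cells by 2.34 and 2.07. In Kd cells, set against control, Hoatz was at 0.10 (adjusted p = 0.821) and Cox6b2 at -0.14 (adjusted p = 0.636). Their matched differences were 2.21 and 2.29.

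Among the genes lower in KO than in Kd cells, Cxcl3, a chemokine that attracts neutrophils, came next to Hdac1. It measured 22.02, 18.95 and 23.49 in KO cells, against 528, 433 and 540.5 in Kd cells. Every other group was at or near the low end, with 22.4, 21.2 and 21.3 in control cells, 29.0, 30.2 and 19.4 in +/+ cells and 41.8, 48.0 and 40.9 in cells with both perturbations. The difference was -3.78 ± 0.10 (adjusted p = 7.51e-13) and -3.93 in the matched contrast. The transcription factor gene Foxp2 measured 73.5, 97.6 and 97.9 in KO cells, against 886, 704 and 745 in Kd cells. Cells with both perturbations resembled Kd cells, at 738, 863 and 809, and control cells were lowest, at 48.7, 59.1 and 38.0. Foxp2 differed by -2.91 ± 0.14 between KO and Kd cells (adjusted p = 9.19e-10). Dcn, which encodes the matrix proteoglycan decorin, measured 27.1, 42.7 and 42.2 in KO cells, against 294, 311 and 289 in Kd cells, and 4297, 3599.5 and 4041 in cells with both. Its difference between KO and Kd cells was -2.57 ± 0.12, with control arrays at 25.1, 19.9 and 22.3.

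Several low genes also differed between +/+ cells with tamoxifen and control. Tfpi, the inhibitor of tissue factor in coagulation, measured 98.2, 86.8 and 75.9 in KO cells, against 661, 585 and 601 in Kd cells (-2.62 ± 0.11), and 2404, 2491 and 2550.3 in +/+ cells with tamoxifen. Those +/+ arrays were the highest of all groups, so the matched difference was -7.36. Ripk3, the kinase of necroptosis, measured 139.7, 85.7 and 123 in KO cells, against 968, 974 and 936 in Kd cells and 1326, 1297 and 1131 in +/+ cells (direct -2.91, matched -5.49). Pir, which encodes the iron-binding protein pirin, measured 20.0, 18.9 and 24.3 in KO cells, against 304, 242 and 332 in Kd cells and 156, 226 and 207 in +/+ cells (direct -3.05, matched -5.05). Against control, KO cells were level in Tfpi (0.13) and lower in Ripk3 (-0.70) and Pir (-0.51), and +/+ cells were above control in all 3, as Kd cells were. The other low genes were Plac8 (-2.60), Rtl3 (-2.50), Lmcd1 (-2.34), Il1rn, the antagonist of the interleukin 1 receptor (-2.26), and the ephrin receptor gene Epha3 (-2.19). Lmcd1 measured 64.5, 65.3 and 93.4 in KO cells, against 460.4, 477 and 382 in Kd cells, and stood between 31.6 and 83.6 in all other groups.

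**Figure D2:**
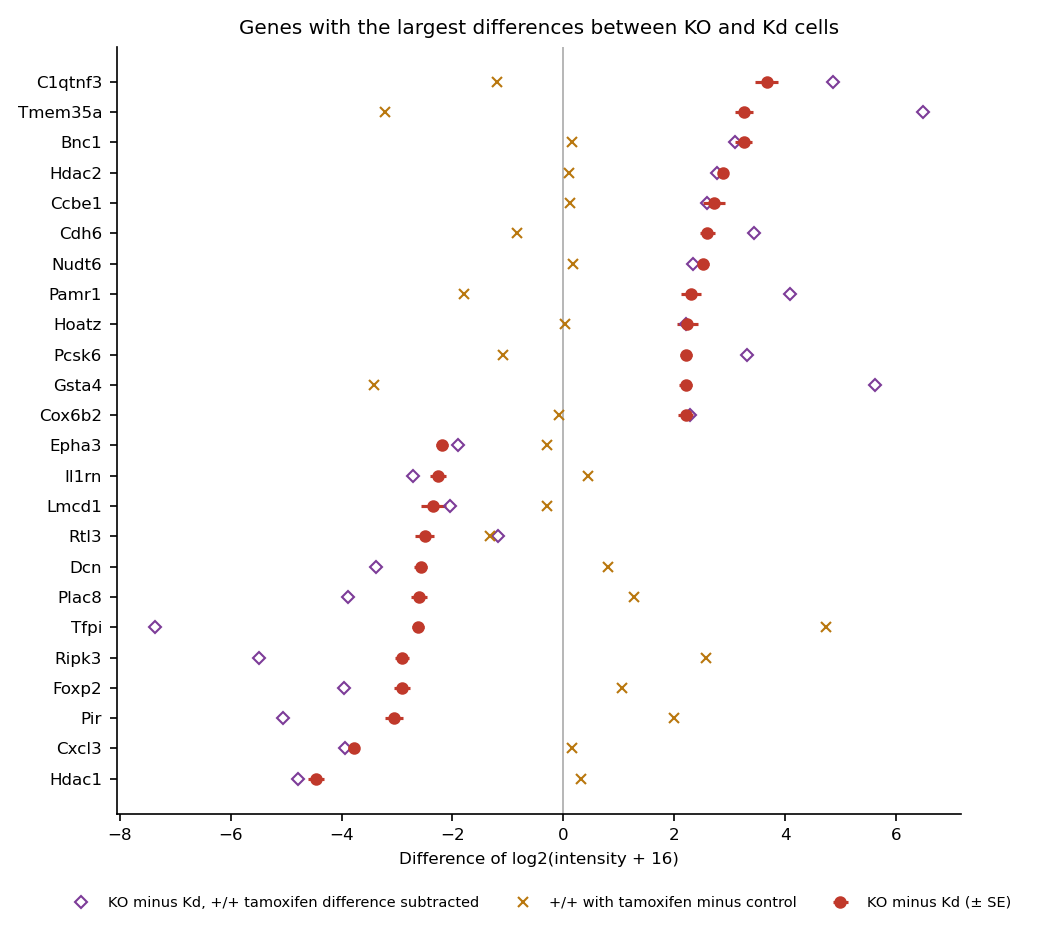
Differences of log2(intensity + 16) for the 12 highest and 12 lowest genes of KO minus Kd cells that passed the threshold without overlap of arrays: filled points with SE bars are the direct contrast, open diamonds the contrast with the +/+ difference subtracted, and crosses +/+ cells with tamoxifen minus control. Bnc1, Ccbe1, Nudt6, Hoatz, Cox6b2 and Cxcl3 have crosses near 0 and diamonds on their points, whereas Tfpi (4.74), Gsta4 (-3.41) and Tmem35a (-3.22) have crosses far from 0.

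Some genes were on opposite sides of control in the 2 groups, with all 3 control arrays between them. Besides C1qtnf3, Bnc1, Ccbe1, Nudt6 and Pamr1, Thy1, a cell surface marker of fibroblasts, was high in KO cells (605, 559 and 759.9) and low in Kd cells (151, 122 and 109), with control at 291, 271 and 279. Thy1 differed by 2.19 ± 0.11 (adjusted p = 1.29e-09), yet +/+ cells with tamoxifen were higher than control by 2.08 and the matched difference was 0.11 (adjusted p = 0.708). In the other direction, Rtl3, a gene of retrotransposon origin, measured 206, 246 and 357 in KO cells, against 1452, 1737 and 1517 in Kd cells, with control at 774, 769.7 and 738. Capn6, a calpain relative without protease activity, measured 137, 121 and 176 in KO cells, against 608, 618 and 654 in Kd cells, with control at 401, 368 and 313. Capn6 was highest in +/+ cells with tamoxifen (2230, 2061 and 1898), and its matched difference was -4.48. Serpinb1a, an inhibitor of neutrophil proteases, measured 218, 198 and 210.2 in KO cells, against 1003, 1016 and 945 in Kd cells, with control at 453, 327 and 313. Rtl3, Capn6 and Serpinb1a were below control in KO cells by log2 differences of -1.48, -1.24 and -0.74 and above it in Kd cells by 1.03, 0.78 and 1.42. Ripk3, Il1rn and Etl4 (-1.82) had the same arrangement. In cells with both perturbations Capn6 and Serpinb1a were higher than in either single perturbation (1541, 1453 and 1456, and 5398, 5679.7 and 5351), whereas Rtl3 was lower than in either (71.0, 119 and 65.0).

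Other genes differed between KO and Kd cells while +/+ cells with tamoxifen stayed within 0.25 of control. The neuropeptide gene Vip measured 829, 1114 and 1124 in KO cells, against 3393, 3079 and 2986 in Kd cells. Both were above control arrays, at 665, 674 and 566, and cells with both reached 16576, 20221 and 20003. Vip differed by -1.62 ± 0.11 directly and -1.55 after matching. Macrod2, an enzyme gene of ADP-ribose metabolism, measured 57.9, 85.7 and 90.8 in KO cells, against 225, 289 and 307 in Kd cells (-1.63 ± 0.20). Pde1a, a phosphodiesterase of cyclic nucleotides, measured 710.3, 688 and 927 in KO cells, against 2358, 2331 and 2211 in Kd cells (-1.56 ± 0.14). Cyp39a1, which hydroxylates oxysterols, measured 169, 179 and 247 in KO cells, against 589.5, 609 and 494 in Kd cells (-1.45 ± 0.13). In each of the 3, all KO arrays were below all Kd arrays. Their matched values were -1.75, -1.77 and -1.50, and passing after matching was a condition for naming them.

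Targets of p53, the transcription factor of DNA damage and stress, were mostly higher in KO than in Kd cells: 25 of 33 tested genes were higher and 1 lower, against 16.1% and 8.97% of all genes, and their median difference was 0.78. The same 2 shares are the background of every list count between KO and Kd cells. In the matched contrast 22 were higher and 1, Plk3, was lower (median 0.69), against 9.28% and 13.1% of all genes. Those shares are likewise the background of every list count in the matched contrast. Against control, KO cells had 27 higher and 0 lower, where 19.5% of all genes were higher and 4.64% lower, and Kd cells had 4 higher and 2 lower, where 7.5% of all genes were higher and 3.02% lower. Mdm2, whose product marks p53 for degradation, measured 2529, 2781 and 2963 in KO cells, against 1004, 927 and 964 in Kd cells. The Kd arrays were at the level of control (1051, 1058 and 973), and the difference was 1.497 ± 0.068 (adjusted p = 3.76e-10, matched 1.32). Trp53inp1, a p53-induced nuclear protein gene, measured 7248, 7821 and 8016 in KO cells, against 2537, 2256 and 2611 in Kd cells (1.64 ± 0.08, matched 1.24). Perp, a desmosome component and p53 target, measured 2837, 3290.02 and 3464 in KO cells, against 783, 793 and 783 in Kd cells, with control between at 1657, 1666 and 1589.9 (2.00 ± 0.08). Pmaip1, which encodes the death-promoting protein Noxa, measured 1313, 1544 and 1454 in KO cells, against 572, 669 and 655 in Kd cells (1.16 ± 0.14). Its matched difference was only 0.14 (adjusted p = 0.693), because +/+ cells with tamoxifen were higher than control by 1.03. Sesn1, a stress-response gene, was the lower member (-0.35), and its call ended without KO replicate 1 or Kd replicate 1.

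Cell cycle regulators moved both ways. Cdkn1a, which encodes the kinase inhibitor p21, measured 7432, 8638 and 8855 in KO cells, against 2708, 2625 and 2603 in Kd cells. The groups were well apart, and Kd arrays lay just below the control arrays at 2786, 2919.5 and 2727. Its difference was 1.64 ± 0.08 (adjusted p = 9.22e-10, matched 1.42). Cdkn1b (p27) was not past the threshold (-0.18 ± 0.07, adjusted p = 0.0972), but it passed, lower in KO cells, after quantile normalization, with centred arrays and after matching. Cdkn1c (p57) measured 128, 191 and 209 in KO cells, against 243, 231 and 252 in Kd cells, a difference of -0.45 ± 0.13 (adjusted p = 0.0171) that no longer passed without KO replicate 1 (adjusted p = 0.0573) or Kd replicate 3 (adjusted p = 0.0592). Of the INK4 inhibitors, Cdkn2b (p15) was higher in KO cells, with 234, 269 and 319 in KO cells, against 107, 124 and 94.2 in Kd cells (1.22 ± 0.15). Its matched difference was smaller and did not pass (0.59, adjusted p = 0.0517). Cdkn2c (p18) was lower, with 568, 634 and 744 in KO cells, against 1718, 1642 and 1610.5 in Kd cells (-1.34 ± 0.08, matched -1.35). Cdkn2c thus had control arrays, at 1107, 1108 and 1115, between the 2 groups. Cdkn2d (p19) was lower by a smaller step (-0.33) and did not pass after matching (-0.20, adjusted p = 0.287), and Cdkn2a overlapped between groups (adjusted p = 0.955).

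The retinoblastoma gene Rb1 measured 1245, 1519 and 1471 in KO cells, against 741, 652 and 712 in Kd cells (0.99 ± 0.09, adjusted p = 6.27e-07), and its relative Rbl1 was lower in KO cells (-0.27; adjusted p = 0.061 without Kd replicate 1, and 0.189 after matching). The D cyclins, which start the exit from G1, were higher in KO cells: Ccnd1 by 0.78 ± 0.08, Ccnd2 by 0.64 ± 0.08 and Ccnd3 by 0.28 ± 0.08. Ccnd1 measured 9494, 11759 and 10905 in KO cells, against 6425, 6376 and 5846 in Kd cells. The call of Ccnd3 ended without KO replicate 2, without Kd replicate 1 or 3, and after matching (0.06, adjusted p = 0.779). Of the E2F factors, E2f5 (0.53) and E2f6 (0.57) were higher in KO cells, and E2f6 did not pass after matching (0.25, adjusted p = 0.148). E2f2 (-0.05, adjusted p = 0.677), E2f4 (-0.25, adjusted p = 0.0827) and E2f8 (-0.27, adjusted p = 0.235) did not pass. E2f1 (adjusted p = 0.63) and E2f3 (adjusted p = 0.958) overlapped between groups. After matching both passed as lower, E2f1 by -0.38 (adjusted p = 0.0407) and E2f3 by -0.46 (adjusted p = 0.0172). E2f7 measured 967, 1009 and 1206 in KO cells, against 1612, 1499 and 1499.8 in Kd cells, without overlap but also without passing (-0.53 ± 0.19, adjusted p = 0.0555). It passed under 5 of 17 alternatives, among them quantile normalization and a model with only KO and Kd arrays, and under no setting without 1 array. In all, 10 of 26 regulators were higher and 5 lower (median -0.02), and 6 and 5 in the matched contrast. Without KO replicate 1, Kd replicate 1 or Kd replicate 3 the lower count was 3.

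Of 45 tested genes of DNA replication, 21 were lower in KO than in Kd cells and 0 higher, and 24 did not pass (median -0.30, against 0.04 for all genes). Of all genes 8.97% were lower, and only 10 members passed without KO replicate 1 or Kd replicate 1. Gins1, a subunit of the replicative helicase, measured 848, 874 and 1025 in KO cells, against 1498, 1513 and 1537 in Kd cells. KO arrays were all below Kd arrays, and the Kd arrays resembled control at 1412, 1468 and 1496. The difference was -0.72 ± 0.12 (adjusted p = 0.000343). Pold1, the catalytic subunit of DNA polymerase delta, measured 1131, 1211 and 1371 in KO cells, against 1897, 1855 and 2018 in Kd cells (-0.63 ± 0.08). Pold2, its partner subunit, was lower by -0.55 ± 0.07 on the signed scale, and Lig1, which joins Okazaki fragments, measured 1313, 1243 and 1597 in KO cells, against 2108, 2108 and 1992 in Kd cells (-0.58 ± 0.15, adjusted p = 0.00865). In the matched contrast only 3 members passed, Gins1 (-0.51), Pold1 (-0.34) and Pold2 (-0.34), with a median of -0.07. Of all genes 13.1% were lower in that contrast, a larger share than 3 of 45. Against control, KO cells had 33 members lower and 0 higher, where 4.64% of all genes were lower and 19.5% higher. Kd cells had 0 and 0, where 3.02% of all genes were lower and 7.5% higher. In +/+ cells with tamoxifen the counts were 12 and 0, where 6.93% of all genes were lower and 21.5% higher. The count of lower members was also 12 without KO replicate 2 and 13 without Kd replicate 2, and it was 34 after quantile normalization.

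Of 50 tested genes of mitosis and G2, 14 were lower in KO cells and 0 higher, and 36 did not pass (median -0.36), where 8.97% of all genes were lower. Spc24, a kinetochore protein gene, measured 549, 577 and 683 in KO cells, against 1086, 1061 and 1079 in Kd cells. Ndc80, its complex partner, measured 801, 949.9 and 1157 in KO cells, against 1572, 1582 and 1489 in Kd cells. Bub1b, the spindle checkpoint kinase gene, measured 1179, 1239 and 1429 in KO cells, against 2099, 2107 and 2073 in Kd cells. KO arrays were below Kd arrays in each, with differences of -0.82 ± 0.19, -0.68 ± 0.12 and -0.70 ± 0.16, and Kd arrays were near control. Espl1, the separase gene, was at -0.63 ± 0.17, and its call ended without KO replicate 1 (adjusted p = 0.0514). In the matched contrast 2 members passed as lower, where 13.1% of all genes did, a larger share than 2 of 50. They were Ndc80 (-0.54) and Pttg1, the securin gene (-0.35), and the median was -0.22. The lower count was 4 without KO replicate 1, 6 without KO replicate 2 or Kd replicate 1, 8 without Kd replicate 2 and 9 without Kd replicate 3. It was 29 after quantile normalization and 32 with only KO and Kd arrays in the model. Cells with both perturbations had 49 members below control, where 19.3% of all genes were lower, and the spread of those 3 arrays entered the shared error of the fit.

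Promoter windows of 250 bases before to 50 after the start site, from RefSeq (GRCm38.p6), are shown for 4 genes whose lists moved between KO and Kd cells. Of 22 motifs searched on both strands in 7 lists, those described were picked after their counts had been seen. The letters TTTGAA, the cell cycle homology region of late cell cycle genes, occurred in 31 of 41 mitosis genes with a promoter entry, against 20.2% of all 27025 genes with windows of that length, and 14.6% of the tested ones, and in 7 of the 11 such genes that were lower in KO cells. The letters TTTCGCGC or TTTGGCGC, a form of the E2F site, occurred in 12 of 38 replication genes, against 0.929% of all genes and 1.74% of tested ones, and in 5 of the 17 such genes that were lower. Capitals mark the site in Bub1b (chr2:118597961-118598260, plus strand) and in Lig1 (chr7:13278576-13278875, plus strand, 1 of 3 start sites; the site is on the opposite strand).
Bub1b: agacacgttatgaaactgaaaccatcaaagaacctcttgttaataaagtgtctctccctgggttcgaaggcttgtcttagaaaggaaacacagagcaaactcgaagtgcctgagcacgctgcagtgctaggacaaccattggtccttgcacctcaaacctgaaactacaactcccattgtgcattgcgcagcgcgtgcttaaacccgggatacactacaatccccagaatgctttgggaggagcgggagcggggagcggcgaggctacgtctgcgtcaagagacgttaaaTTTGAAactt
Lig1: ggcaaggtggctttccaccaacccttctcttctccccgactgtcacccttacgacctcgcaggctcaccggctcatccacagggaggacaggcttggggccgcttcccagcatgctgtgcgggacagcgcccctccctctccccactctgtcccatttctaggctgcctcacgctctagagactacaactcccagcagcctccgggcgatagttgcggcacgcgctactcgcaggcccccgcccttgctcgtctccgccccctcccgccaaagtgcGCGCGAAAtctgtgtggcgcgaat
A match describes letters only and is no evidence of binding.

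Lysosomal genes were mostly higher in KO than in Kd cells, 20 of 32 tested with 1 lower (median 0.27). Manba, the beta-mannosidase gene, measured 362, 378 and 381 in KO cells, against 141, 110.1 and 91.0 in Kd cells and 151, 159.6 and 164 in control cells (1.60 ± 0.11). Manba stayed apart in the matched contrast (2.07), as +/+ cells with tamoxifen were not raised (-0.46). Ctsd, the protease cathepsin D, measured 4708, 5818 and 5966 in KO cells, against 3494, 3449.7 and 3144 in Kd cells (0.70 ± 0.09), and Neu1, the lysosomal sialidase, measured 208, 256 and 265 in KO cells, against 133, 135 and 60.5 in Kd cells (1.11 ± 0.19). In +/+ cells with tamoxifen both were higher than control, by 0.55 and 0.67, and their matched differences did not pass (0.15 and 0.43). The list as a whole did the same: 4 members were higher and 4 lower after matching, with a median of -0.00. Those counts, of 32, were near the shares of all genes after matching, 9.28% higher and 13.1% lower. Against control, +/+ cells had 19 higher and 1 lower, where 21.5% and 6.93% of all genes were. Ctsk, the collagen-degrading cathepsin K, was the lower member, with 39.2, 23.8 and 23.9 in KO cells, against 81.5, 93.4 and 62.4 in Kd cells (-1.09 ± 0.14).

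Cholesterol synthesis genes were higher in KO than in Kd cells in 16 of 20 cases and lower in 0 (median 0.59). Idi1, an isomerase of the isoprenoid steps, measured 8296, 9957 and 9964 in KO cells, against 4888, 4765 and 5055 in Kd cells, and Nsdhl, of the sterol steps, measured 4082, 4269 and 4818 in KO cells, against 2534, 2369.6 and 2152 in Kd cells. Control arrays lay between in both (6585, 7411 and 6826 for Idi1, and 2982, 2987 and 2902 for Nsdhl). The differences were 0.93 ± 0.10 and 0.90 ± 0.08, and after matching neither passed (adjusted p = 0.0671 and 0.0552). Against control 11 members were higher and 0 lower in KO cells, where 19.5% and 4.64% of all genes were, and 0 were higher and 8 lower in Kd cells, where 7.5% and 3.02% were. In +/+ cells with tamoxifen 16 were higher and 0 lower against control, where 21.5% and 6.93% of all genes were. The matched contrast had 5 higher and 1 lower (median 0.23), where 9.28% and 13.1% of all genes were. Hsd17b7 (0.34), Mvd (0.71), Msmo1 (0.41), Sqle (0.68) and Srebf2, the transcription factor of the pathway (0.61), were the 5, and Pmvk (-0.38) was the lower one. Tm7sf2, a sterol reductase, measured 101, 135 and 119.9 in KO cells, against 49.4, 52.6 and 47.5 in Kd cells (1.03 ± 0.11), and the matched difference was -0.19 (adjusted p = 0.476).

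The letters GTCACGTG, an E-box of the CLEAR type known from lysosomal genes, occurred in 10 of 27 lysosomal promoters. They occurred in 2.55% of all genes and 4.56% of tested ones. Of the 17 such lysosomal genes that passed between KO and Kd cells, in either direction, 7 had these letters. The same letters hold the shorter E-box CACGTG. The box bound by NF-Y, CCAAT, occurred in 16 of 16 cholesterol promoters, against 41.1% of all genes and 42.7% of tested ones. Capitals mark 2 CLEAR-type sites in Ctsd (chr7:142387778-142388077, minus strand, read in the opposite sense) and the CCAAT box of Tm7sf2 (chr19:6067801-6068100, minus strand, also in the opposite sense).
Ctsd: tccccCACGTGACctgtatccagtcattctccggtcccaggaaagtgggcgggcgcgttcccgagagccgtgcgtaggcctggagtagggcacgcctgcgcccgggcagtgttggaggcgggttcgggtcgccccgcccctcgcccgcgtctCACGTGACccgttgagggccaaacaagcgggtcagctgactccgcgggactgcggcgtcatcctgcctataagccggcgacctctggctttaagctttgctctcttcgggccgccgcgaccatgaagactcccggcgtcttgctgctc
Tm7sf2: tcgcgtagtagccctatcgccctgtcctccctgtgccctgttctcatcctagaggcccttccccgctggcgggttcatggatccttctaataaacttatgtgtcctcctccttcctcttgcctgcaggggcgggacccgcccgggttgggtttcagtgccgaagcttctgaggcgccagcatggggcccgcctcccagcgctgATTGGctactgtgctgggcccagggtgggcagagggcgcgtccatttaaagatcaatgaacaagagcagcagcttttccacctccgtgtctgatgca
Both genes were higher in KO than in Kd cells without overlap of arrays, and in +/+ cells with tamoxifen both were above control.

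**Figure D3:**
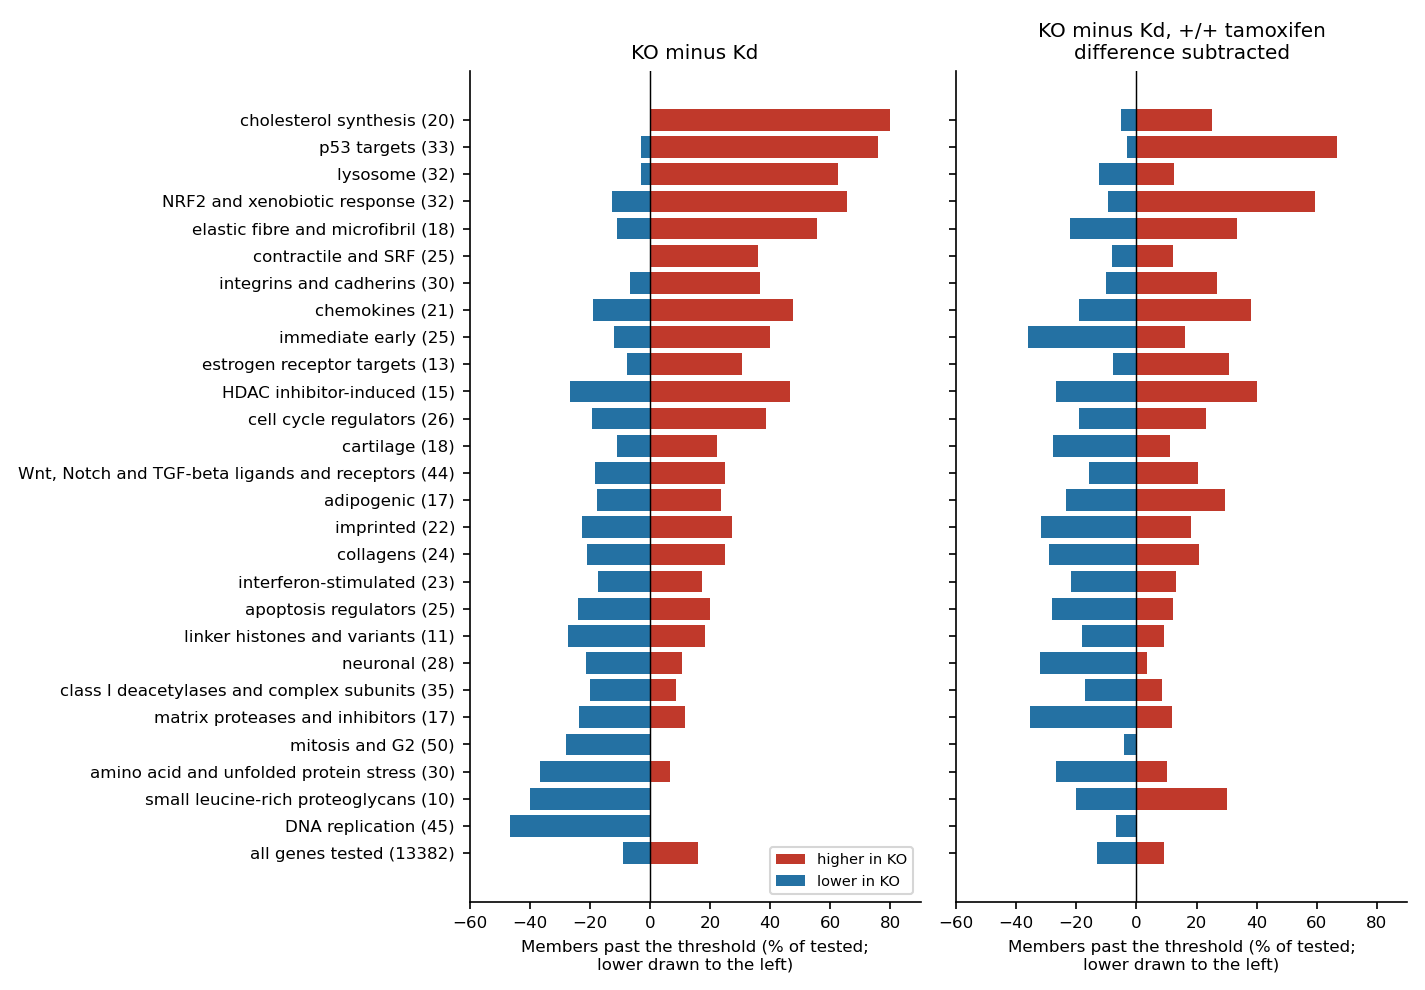
Percent of tested members (numbers in brackets) past the threshold for 27 gene lists and for all genes, with members higher in KO cells drawn to the right and lower ones to the left. The left panel is the direct contrast of KO minus Kd cells and the right panel the one with the +/+ difference subtracted; p53 targets keep their bar (22 of 33 higher), whereas cholesterol (5 of 20) and lysosome (4 of 32) bars shrink.

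NRF2 and xenobiotic response genes, which protect against oxidants and foreign compounds, had 21 higher and 4 lower of 32 (median 0.28), and 19 higher and 3 lower in the matched contrast (median 0.39). Nqo1, a quinone reductase, measured 1623, 1596 and 1809 in KO cells, against 541, 480.3 and 443 in Kd cells. Control arrays, at 1139, 1222 and 1027, lay between, and +/+ cells with tamoxifen were lower still (178, 277 and 221). Nqo1 differed by 1.75 ± 0.18 directly and by 4.01 after matching. Gsta4, a glutathione transferase of lipid aldehydes, measured 1746, 1873 and 2204 in KO cells, against 442, 435 and 346 in Kd cells and 80.6, 69.1 and 93.9 in +/+ cells. Abcc4, an exporter of conjugates, measured 2160.2, 2078 and 2821 in KO cells, against 854, 659.6 and 756 in Kd cells (1.61 ± 0.12). In all 3, KO cells were above control and +/+ cells with tamoxifen below it. These cells also differ in genotype and possibly in viruses, and the part of the agent was not tested. Hmox1, the heme oxygenase gene, was higher in KO than in Kd cells (1.06, matched 0.82), as were Gclc (0.59, matched 1.23) and Srxn1 (0.53, matched 0.76). Pir and Gstt1 (-1.07) were the largest of the 4 lower members, beside Gclm (-0.31) and Gsr (-0.31). Without KO replicate 1 or Kd replicate 2 the lower count was 2.

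**Figure D4:**
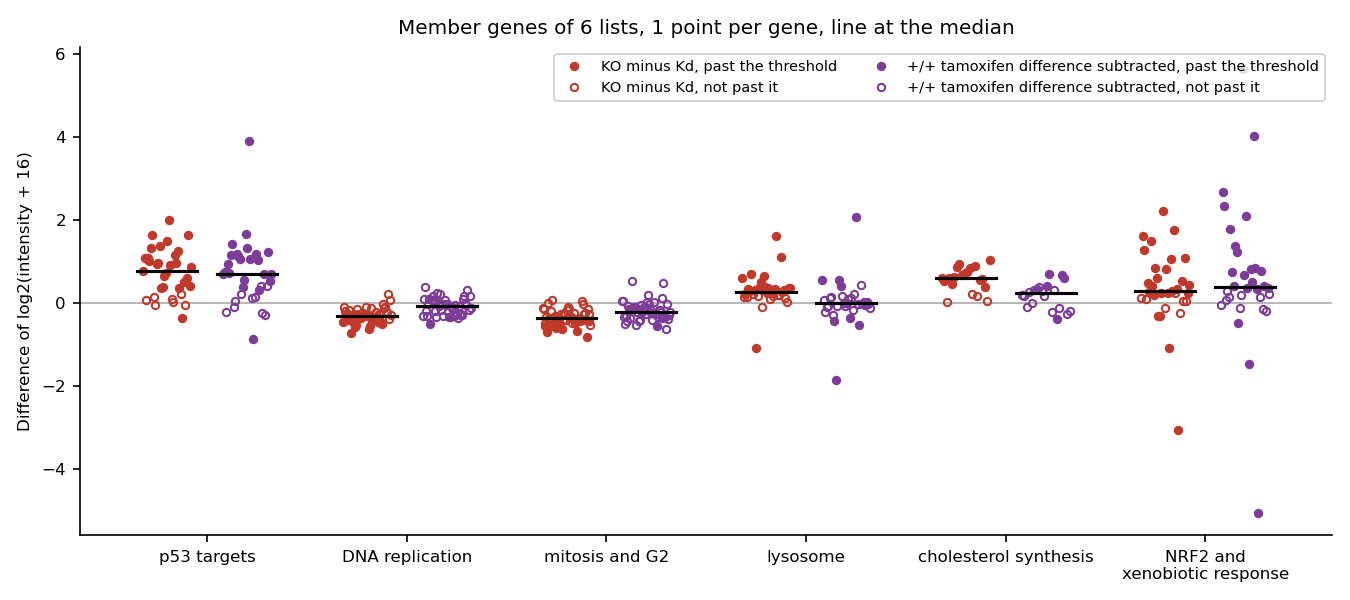
Differences of log2(intensity + 16) of every tested member of 6 lists, 1 point per gene, for KO minus Kd cells and for the contrast with the +/+ difference subtracted; filled points passed the threshold and lines are medians. The p53 medians are 0.78 and 0.69, and those of lysosomal genes 0.27 and -0.00.

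Genes of the amino acid and unfolded protein stress responses had 2 higher and 11 lower of 30 in KO cells (median -0.19), 3 and 8 after matching, and 18 lower after quantile normalization. Trib3, a pseudokinase induced by amino acid shortage, measured 1151, 1402 and 1446 in KO cells, against 2317, 2542 and 2508 in Kd cells (-0.88 ± 0.18, adjusted p = 0.00209). Slc7a5, a transporter of large amino acids, measured 3469, 3798 and 4027 in KO cells, against 5737, 5662 and 5420.4 in Kd cells (-0.57 ± 0.07). Mthfd2, of mitochondrial folate metabolism, measured 5088, 4716 and 5944 in KO cells, against 7343, 7798 and 7662 in Kd cells (-0.54 ± 0.08). All KO arrays were below all Kd arrays in the 3 genes. Only Mthfd2 passed after matching (-0.40); Trib3 (adjusted p = 0.127) and Slc7a5 (adjusted p = 0.915) did not.

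Immediate early genes, which answer growth factors within minutes, were 10 higher and 3 lower of 25 (median 0.01), and 4 higher and 9 lower after matching (median -0.31). Fosl1, a Fos family factor, measured 1412, 1503 and 1759 in KO cells, against 641, 623 and 633 in Kd cells (1.27 ± 0.11). Fos itself was lower, with 1261, 1106 and 1105 in KO cells, against 2448, 1772 and 2201 in Kd cells (-0.87 ± 0.24, adjusted p = 0.0132, 0.0565 without Kd replicate 1, and 0.159 after matching). All KO arrays were below all Kd arrays, and the Kd arrays varied more than the KO arrays. Nr4a1 (0.53, matched -0.96), Egr3 (0.44, matched -0.83) and Fosl2 (0.20, matched -0.60) were on opposite sides of 0 in the direct and matched contrasts. The higher count was 6 without KO replicate 2, and the lower count was 1 without Kd replicate 1.

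Contractile genes had 9 higher and 0 lower of 25 in KO cells (median 0.10), and 3 and 2 after matching. Acta1, the skeletal form of alpha-actin, measured 2805, 3412 and 3432 in KO cells, against 1419.9, 1513 and 1429.9 in Kd cells (1.13 ± 0.16, matched 1.93). Tagln, the smooth muscle protein transgelin, was very bright on all arrays, and KO cells were higher than Kd cells by 0.34 ± 0.06 (matched 0.09, adjusted p = 0.491). Without Kd replicate 2 or Kd replicate 3 the higher count was 5.

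Genes of the extracellular matrix differed in both directions. Of 24 collagens 6 were higher and 5 lower in KO cells (median 0.02), where 16.1% of all genes were higher and 8.97% lower. Without KO replicate 2, KO replicate 3 or Kd replicate 2 the higher count was 3, and the lower count was 2 without KO replicate 2 and 3 without KO replicate 1, Kd replicate 1 or Kd replicate 3. Col3a1, of fibrillar collagen III, measured 9887, 10562 and 11173 in KO cells, against 22487, 22699 and 21493 in Kd cells (-1.08 ± 0.07, matched -1.12). Col18a1, of basement membranes, measured 1781, 1975 and 2187 in KO cells, against 968, 836 and 1003 in Kd cells (1.07 ± 0.10). The 2 collagens had opposite directions without overlap of arrays. Small leucine-rich proteoglycans had 0 higher and 4 lower of 10. Dcn led them, and Lum, which encodes lumican, measured 17.98, 15.99 and 20.38 in KO cells, against 55.6, 51.3 and 50.2 in Kd cells (-1.004 ± 0.153). Ogn (-0.26) and Omd (-0.76) were lower directly but higher in the matched contrast (1.43 and 1.13), since +/+ cells with tamoxifen were far below control in both (-1.70 and -1.90). The direct call of Ogn ended in 5 of the 6 settings without 1 array, which leaves KO replicate 3 as the exception.

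Elastic fibre genes had 10 higher and 2 lower of 18 (median 0.26), and 6 and 4 after matching. Efemp1, which encodes fibulin 3, measured 7861, 8813 and 8559.9 in KO cells, against 3521, 2911 and 3324 in Kd cells, with control closer to the KO cells at 7503, 6866 and 6208 (1.37 ± 0.09). Fbn2, the fetal fibrillin gene, measured 1703, 1647 and 1997 in KO cells, against 3167, 2953 and 3363 in Kd cells, with control near the Kd cells at 3385, 3454 and 3976 (-0.82 ± 0.14). Efemp1 thus departed from control mainly in Kd cells (-1.07) and Fbn2 mainly in KO cells (-1.01). Among cartilage genes 4 were higher and 2 lower of 18. Acan, which encodes aggrecan, measured 99.8, 85.6 and 129 in KO cells, against 409, 416 and 358 in Kd cells and 1124, 1518 and 1160.5 in +/+ cells (-1.78 ± 0.14, matched -3.59). Col2a1, the collagen of cartilage, was higher, with 9929, 10588 and 12223 in KO cells, against 5955, 6179 and 6273 in Kd cells (0.82 ± 0.09). Matrix proteases and their inhibitors had 2 higher and 4 lower of 17. Mmp23 measured 185, 214 and 242 in KO cells, against 43.0, 38.6 and 27.7 in Kd cells (2.13 ± 0.11), and the aggrecan-cleaving proteases Adamts1 and Adamts5 were lower, by -1.18 ± 0.08 and -0.995 ± 0.096 on the signed scale.

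Chemokines and cytokines had 10 higher and 4 lower of 21 (median 0.15), and 8 and 4 after matching. Ccl7, which attracts monocytes, measured 1236, 1436 and 1399 in KO cells, against 441, 427 and 440.1 in Kd cells and 243, 232 and 193 in +/+ cells (1.60 ± 0.18, matched 3.91). Cxcl1, a neutrophil chemokine like Cxcl3, measured 931, 950.3 and 1027 in KO cells, against 3986, 3654 and 3658 in Kd cells, but 375, 223 and 155 in +/+ cells and 3173, 2554 and 2587 in control cells. All 3 groups with tamoxifen were low in Cxcl1, and its sign changed with matching (direct -1.94 ± 0.23, matched 1.52, adjusted p = 0.00282). Il11, a cytokine of the interleukin 6 family, measured 762, 891 and 811 in KO cells, against 181, 200.4 and 158 in Kd cells (2.10 ± 0.15), and 1109, 1017 and 898 in +/+ cells. Its matched difference was 0.11 (adjusted p = 0.789). Of 23 interferon-stimulated genes 4 were higher, a share like the 16.1% of all genes, and 4 were lower, where 8.97% of all genes were. Ifit1 measured 75.3, 48.7 and 113 in KO cells, against 16.3, 14.1 and 15.2 in Kd cells (1.55 ± 0.20), and Bst2, which tethers virus particles, measured 87.9, 154 and 193 in KO cells, against 279, 235 and 237 in Kd cells (-0.78 ± 0.18). Ifit1 was thus above, and Bst2 below, its level in Kd cells on all arrays.

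**Figure D5:**
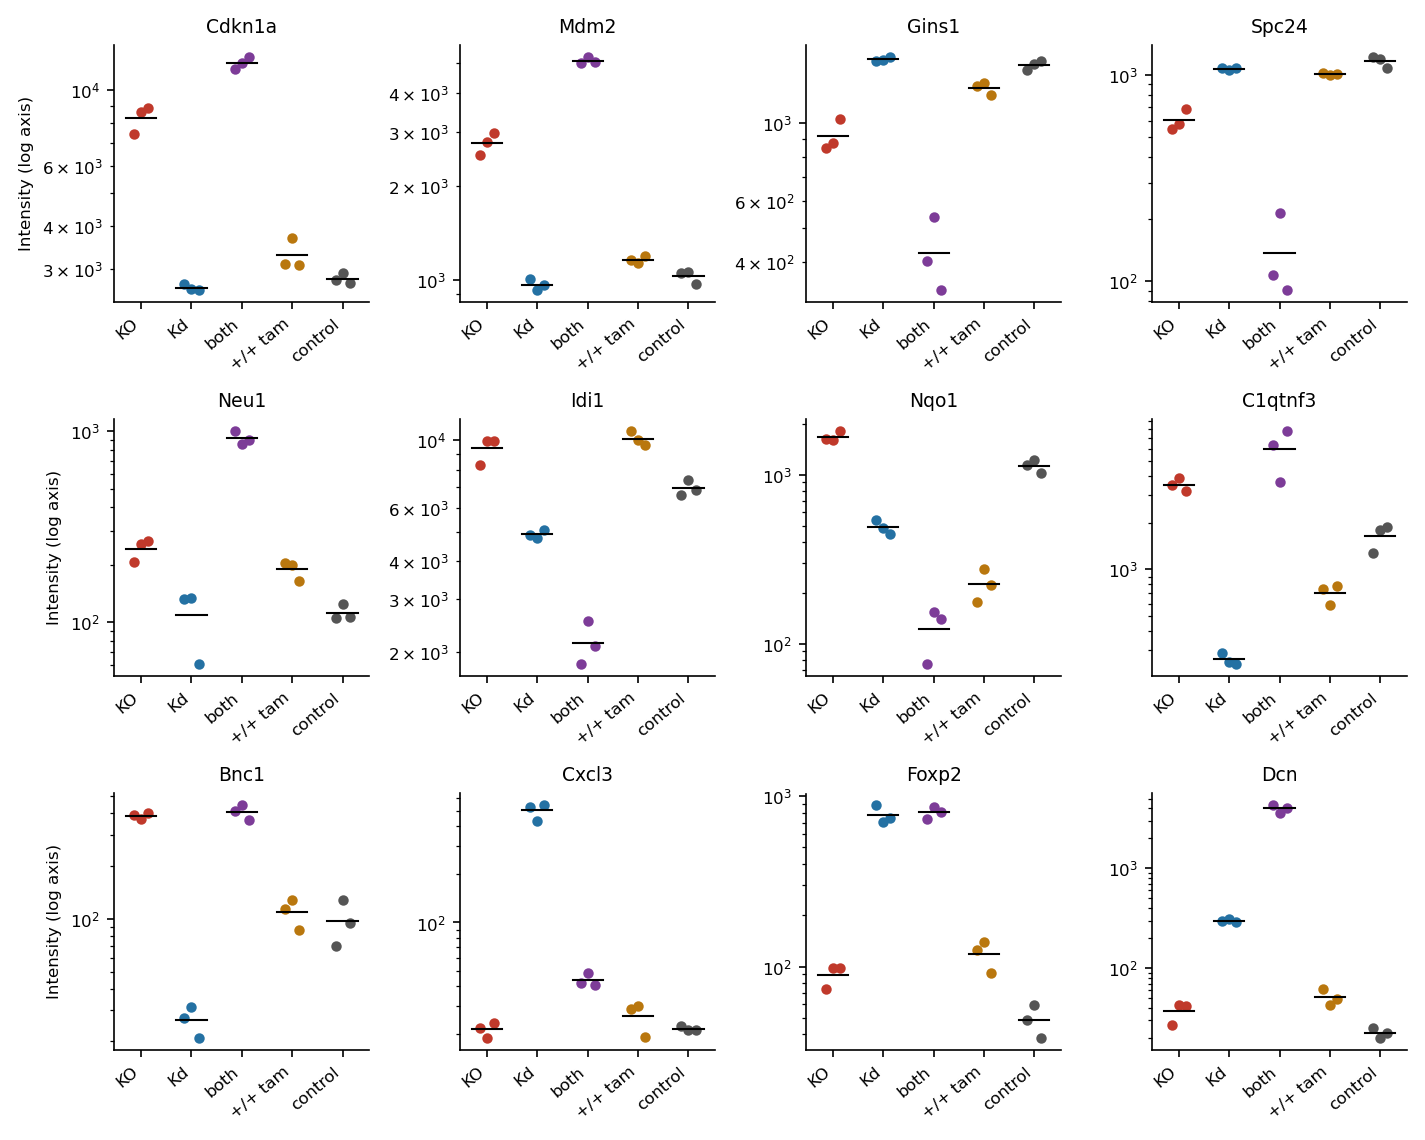
Intensities (log axes) of 12 genes on all 15 arrays, with KO, Kd, both, +/+ with tamoxifen and control cells from left to right; points are arrays and lines are means (n = 3). Cdkn1a and Mdm2 are higher in KO than in Kd cells, Gins1 and Spc24 lower, Cxcl3 is high in Kd cells alone, and Nqo1 and Idi1 have control between KO and Kd cells.

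Apoptosis regulators had 5 higher and 6 lower of 25 (median -0.07). Bcl2l11, which encodes the death-promoting protein Bim, measured 658, 709 and 685 in KO cells, against 1944, 1762 and 1971 in Kd cells (-1.45 ± 0.17, matched -1.13). Casp4, an inflammatory caspase, measured 180.4, 173 and 228 in KO cells, against 537, 467 and 502 in Kd cells (-1.31 ± 0.14, matched -1.49). Noxa (Pmaip1) and Bim, both of the BH3 class, were therefore opposite in sign. Bcl2l1, which encodes the survival protein Bcl-xL, was higher in KO cells (0.76, matched 0.45).

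Of 28 neuronal genes 3 were higher and 6 lower in KO cells (median 0.00), and 1 and 9 after matching. Stmn2, a microtubule regulator of growth cones, measured 937, 1017 and 1181 in KO cells, against 3722, 3522 and 3404 in Kd cells and 1309.7, 1155 and 1041 in control cells. KO cells were near control and Kd cells above it, with a difference of -1.75 ± 0.10 (matched -3.12). Tubb3, the neuronal beta-tubulin, measured 321, 296 and 475 in KO cells, against 1078, 1034 and 947 in Kd cells (-1.47 ± 0.12), with control between at 534, 545 and 504. Map2, a dendritic microtubule protein, measured 412, 485 and 547 in KO cells, against 1056, 1035 and 1039 in Kd cells (-1.10 ± 0.08). Uchl1, a neuronal ubiquitin hydrolase, was higher, with 243, 230.4 and 345 in KO cells, against 112, 97.0 and 117 in Kd cells (1.20 ± 0.12). Its matched difference was -0.89 (adjusted p = 0.00106), as +/+ cells with tamoxifen were above control by 2.09. Genes known to rise with deacetylase inhibitors had 7 higher and 4 lower of 15 (median 0.21), with Cdkn1a the highest and Tubb3 the lowest. Ckb, brain creatine kinase, measured 727, 845 and 891 in KO cells, against 279, 289.8 and 249 in Kd cells (1.53 ± 0.10, matched 0.52). The metallothionein Mt1 was higher in KO cells by 0.82 ± 0.09, and by 0.33 (adjusted p = 0.0567) without probe sets marked _x_at or _s_at, which can bind several genes.

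Imprinted genes, expressed from 1 parental allele, had 6 higher and 5 lower of 22 (median 0.08). Dlk1, an inhibitor of fat cell formation, measured 2855, 3014 and 3526 in KO cells, against 1233, 1196 and 1189 in Kd cells and 4450.1, 4265 and 4054 in control cells (1.36 ± 0.08). Without _x_at and _s_at probe sets another probe set stood for Dlk1, at 0.03 (adjusted p = 0.816). Slc38a4, an amino acid transporter, measured 805, 1078 and 1017 in KO cells, against 3369, 3159.8 and 3396 in Kd cells (-1.77 ± 0.10, matched -2.47). Mest, paternally expressed, measured 209, 185 and 161 in KO cells, against 389, 452 and 370.4 in Kd cells (-1.07 ± 0.19). The imprinted members thus had no common direction. Among 17 adipogenic genes 4 were higher and 3 lower. Pparg, the master factor of fat cells, measured 261, 291 and 402 in KO cells, against 105, 63.4 and 77.6 in Kd cells (1.77 ± 0.17, matched 1.93). KO cells were near control (303, 356 and 319) and Kd cells far below it. Cebpd, an early adipogenic factor, was lower in KO cells, with 824, 916 and 935 in KO cells, against 1746, 1788 and 1725 in Kd cells (-0.96 ± 0.10).

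Ligands and receptors of the Wnt, Notch and TGF-beta pathways had 11 higher and 8 lower of 44 (median 0.08), and 9 and 7 after matching. Grem1, a secreted antagonist of BMP ligands, measured 12624, 12179.5 and 16341 in KO cells, against 3521, 3412 and 3129 in Kd cells, with control between at 7755, 7761 and 7532 (2.02 ± 0.10, matched 2.86). Wnt5b, a Wnt ligand, measured 43.5, 38.2 and 44.9 in KO cells, against 207, 191 and 209 in Kd cells, and 44.8, 50.5 and 46.5 in control cells (-1.91 ± 0.08). Fzd6, a Wnt receptor, measured 661, 651 and 855 in KO cells, against 1586, 1545 and 1676 in Kd cells (-1.14 ± 0.10, matched -1.14). Wnt5b and Fzd6 were at control level in KO cells and above it in Kd cells. Dkk3 (1.07), Fzd5 (0.64) and Tgfb1 (0.61) were higher in KO cells, with matched values of 1.28, 0.76 and 0.54. The higher count was 7 without KO replicate 3, and the lower count was 5 without KO replicate 1 or 2 or Kd replicate 1 or 3.

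Integrins and cadherins had 11 higher and 2 lower of 30 (median 0.12), led by Cdh6, and 7 higher without KO replicate 2. The lower count was 1 without KO replicate 1 or 2 or Kd replicate 1 or 2. Itga6, a laminin receptor subunit, measured 491, 582 and 561 in KO cells, against 288, 275 and 288 in Kd cells (0.90 ± 0.08, matched 1.74). Cdh13, a cadherin without a cell-spanning part, was lower, with 70.0, 84.2 and 107 in KO cells, against 165, 178 and 177 in Kd cells (-0.89 ± 0.14). Subunits of the deacetylase complexes, with Hdac1 and Hdac2 among them, had 3 higher and 7 lower of 35 (median -0.00). Beside Hdac2, Arid4a of the Sin3 complex measured 206, 264 and 217 in KO cells, against 131, 129 and 133 in Kd cells (0.73 ± 0.13). Gatad2b of NuRD was at 0.77 ± 0.22, but at 0.09 as the mean of its probe sets, and its call ended without KO replicate 2, KO replicate 3 or Kd replicate 3. Beside Hdac1 the lower subunits were Phf21a (-0.68), Sap130 (-0.60), Chd3 (-0.38), Tbl1xr1 (-0.37), Sap30 (-0.35) and Mbd3 (-0.22). The lower count was 13 after quantile normalization. Without KO replicate 1 or 2 or Kd replicate 1 it was 4, and without KO replicate 1 the higher count was 5. Of 11 linker histones and histone variants 2 were higher and 3 lower, but 1 was higher without KO replicate 1 or 3 or Kd replicate 2 or 3, and 7 were lower after quantile normalization. H1f2, a linker histone, measured 4547, 4499 and 4804 in KO cells, against 2756, 2877 and 2892 in Kd cells (0.70 ± 0.10), and Macroh2a1 measured 1807, 1948 and 1918 in KO cells, against 3334, 3488 and 3348 in Kd cells (-0.84 ± 0.11, matched -1.27).

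Tamoxifen also binds the estrogen receptor, and a list of receptor targets known from human breast cells was read for this reason. It had 4 higher and 1, Sgk3 (-0.79), lower of 13 in KO against Kd cells. In +/+ cells with tamoxifen against control it had 3 higher and 3 lower, where 21.5% and 6.93% of all genes were. Igfbp4, which binds insulin-like growth factors, measured 2915, 3572 and 3707 in KO cells, against 2675, 2567 and 2496 in Kd cells (0.39 ± 0.09), while +/+ cells were below control (-0.48). Ctsd, on this list as well as the lysosomal one, was above control in +/+ cells (0.55). The part of the agent in these values was not tested.

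Markers of fibroblasts were present in both groups, and 4 of 10 were higher and 4 lower in KO cells. Col3a1, Thy1 and S100a4 (0.70 ± 0.10) had the largest differences, and without KO replicate 1 or Kd replicate 1 only 1 was lower, and 2 without KO replicate 2 or Kd replicate 3. Of 12 macrophage markers 6 were tested and 1 passed, Csf1r, with 208, 116 and 203 in KO cells, against 89.0, 71.8 and 87.6 in Kd cells (0.92 ± 0.19; matched adjusted p = 0.201). The summed intensity of the 6 ran from 245 to 331 in KO cells, from 189 to 200.04 in Kd cells and from 177 to 217 in control cells, and Cd68, Lyz2 and Cx3cr1 were at most 34.9 on KO and Kd arrays. Of 3 endothelial markers and 5 skeletal muscle markers tested, 0 passed, but 1 of each list passed without KO replicate 3. Epcam passed among 7 epithelial markers, by 0.25 ± 0.08 at intensities of at most 52.2 in KO and Kd cells. Its call ended without KO replicate 2 and without Kd replicate 1 or 2. It also ended after quantile normalization (adjusted p = 0.139), with centred arrays (0.182), with array weights (0.262) and with only KO and Kd arrays (0.0647). Krt19 did not pass but did so under 5 of 17 alternatives. Of 7 pericyte and smooth muscle markers 3 were higher in KO cells: Notch3 (1.05 ± 0.12, but 0.10 without _x_at and _s_at probe sets), Rgs5 (0.48 ± 0.11) and Pdgfrb (0.28 ± 0.07). Rgs5 (adjusted p = 0.0566) and Pdgfrb (adjusted p = 0.0965) did not pass after matching, where the list had 1 higher and 1 lower, or with array weights. Their summed intensity ran from 48024 to 53910 in KO cells, against 46693 to 48214 in Kd cells. Of 3 Y-linked genes tested, Eif2s3y (0.40 ± 0.07) and Uty (0.44 ± 0.10) were a little higher in KO cells. The labels give both groups as male. After matching all 3 passed as higher. The part of these shifts in the other differences was not tested.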

How the data were processed

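RNA for the 15 arrays was column-purified, labelled with biotin in 1 cycle of in vitro transcription and hybridised to Affymetrix mouse whole-genome arrays, per the labels' protocols. The authors deposited 1 linear intensity per probe set and array. The background correction, summarisation and scaling behind these intensities are named in no source used here, and a different scaling shifts all differences of a contrast together. Over the 15 arrays, medians of probe set intensity ran from 24.1 to 30.7 and 75th percentiles from 414 to 531. In KO cells alone the 75th percentile ran from 420 to 509. No 2 arrays held identical values, and the number of arrays limits the precision.

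Of 45037 probe sets, 34945 had 1 gene symbol in the platform annotation, 932 several and 9160 none, and only the first kind was used. Probe sets above the 40th percentile of their array on at least 3 arrays were kept, and of several probe sets for a gene the brightest on average was used, which left 13382 of 18193 symbols. Differences were fitted on log2(intensity + 16), which understates the change of dim genes, with limma 3.58.1 in R 4.3.3 (lmFit, contrasts.fit, eBayes; 1 coefficient per group, all 15 arrays; two-sided; Benjamini-Hochberg over all genes; threshold 0.05). Simulated data for KO minus Kd had 13382 genes, 200 of them changed per run, with independent normal noise and no shift in scaling. Of changed genes, 15.6% were called at a log2 size of 0.25, 77.6% at 0.5 and 99.2% at 1. Unchanged genes made up 5.56% of calls. That share does not carry over to the measured contrast, where 25.1% of genes passed and counts moved with the scaling.

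Genes were named by rule: the class I deacetylases and cell cycle regulators, the 12 highest and 12 lowest without overlap, the 6 in each direction with all control arrays between, the 6 in each direction with a +/+ difference within 0.25 of 0, up to 4 members per list, and the marker genes. The genes with a +/+ difference within 0.25 of 0 also had to pass the matched contrast in the same direction. Other list members are given where a count is broken down, and were chosen after their values were seen. The members and lists were chosen with earlier results of these data known. Lists are described by counts and medians, with no set test. Alternatives changed the filter, pseudocount, probe set choice, normalization, array weights, variance moderation and model, and left out each KO and Kd array in turn.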

Additional observations from a re-analysis of the deposited data

How the results depend on the processing

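The 3358 genes past the threshold between KO and Kd cells numbered between 3215 and 4308 under the other filters, probe set choices, scalings, variance models and pseudocount, except with 3014 when only KO and Kd arrays entered the model and 1651 (1109 higher, 542 lower) with array weights, which gave KO replicate 2 almost no weight. Leaving out 1 array gave 2476 to 3641 genes, with 1557 to 2849 higher and 792 to 1627 lower. Quantile normalization gave 2240 lower genes and centred arrays 2233, and shifted the median of all genes to -0.01 and -0.02. With the +/+ difference subtracted there were 1242 higher genes, and 274 higher and 290 lower by 2-fold. That contrast had 1923 higher genes after quantile normalization, and 1034 to 1506 higher and 1295 to 2449 lower without 1 array. Subtracting the +/+ difference changed the sign of some genes named by rule that passed in either contrast. They were Ankrd1 (-0.31), Ccne1 (-0.10), Cxcl1 (1.52), E2f3 (-0.46), Ogn (1.43), Omd (1.13), Tm7sf2 (-0.19) and Uchl1 (-0.89). Of these, Ankrd1 (adjusted p = 0.194), Ccne1 (0.649) and Tm7sf2 (0.476) did not pass after the subtraction. Of 146 named genes past the threshold, 122 stayed past it in the same direction under every one of the other alternatives that kept the gene (17, or 16 for Col10a1, Ifit1 and Lmcd1), 24 lost the call in at least 1, and 0 changed direction. With the replicate block, 3146 genes passed (2011 higher, 1135 lower). Deviations of KO and Kd arrays of the same number correlated at -0.063, -0.044 and -0.122, so the numbers are not taken to pair the arrays. Quantile normalization and centring also raised the count of lower members, to 34 and 35 in replication, 29 and 33 in mitosis, 8 and 9 in cell cycle regulators, and 7 under both in interferon-stimulated genes. The cause of these differences between settings was not tested. The limits are the 3 arrays per group, the unknown scaling and the lack of an ethanol-treated +/+ group or a tamoxifen-treated knockdown without deletion.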
